A study of Mus musculus with 6 samples.

Results

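Aminoacyl-tRNA synthetases join each amino acid to its transfer RNA, the step that sets what a codon means. The genes described here were chosen by symbol, as a letter for the amino acid followed by "ars" with an optional suffix, or Eprs. The rule took 37 of the 25526 genes listed. The 20 with the suffix 1, a, b or none are counted as cytosolic and the 17 with the suffix 2 as mitochondrial. The cells were from MOC2, a line grown from a carcinoma of the mouse mouth. Parental cells with wild-type p62 were compared with cells in which Sqstm1, the gene of the autophagy receptor p62, had been knocked out with CRISPR-Cas9. Each genotype had 3 bulk poly(A) RNA-seq libraries from cells grown in medium with serum and no further treatment. The sources used here do not say whether the knockout cells are 1 clone, several clones or a pool. The comparison asks how transcript levels differ between the genotypes, and a p-value sets it against the spread between cultures.

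Most cytosolic and mitochondrial synthetases are separate nuclear genes, because mitochondria translate their own mRNAs with their own transfer RNAs. Kars (lysine) and Gars (glycine) are exceptions that supply both compartments, and Farsa and Farsb are the subunits of a single cytosolic phenylalanine enzyme. Several cytosolic enzymes sit together in the multi-synthetase complex, held by the scaffold proteins encoded by Aimp1, Aimp2 and Eef1e1. Many cytosolic synthetase genes are known targets of ATF4, the transcription factor that is translated when uncharged transfer RNA or other stress activates the integrated stress response. Cells also raise Wars1, the cytosolic tryptophan enzyme, in response to interferon.

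Depth ranged from 32821860 to 41763980 exon reads per library. Sqstm1 stood at 1567, 1783 and 2103 CPM (TMM-normalised counts scaled to library size) in parental replicates 1 to 3 and at 117, 589 and 125 CPM in knockout replicates 1 to 3, so that knockout replicate 2 kept more of the transcript than the others did (log2 fold change -2.71 ± 0.65, SE; edgeR adjusted p = 0.048). The Sqstm1 call held in 7 of 14 alternatives, and its adjusted p was 0.0959 to 0.178 on leaving out any 1 library except knockout replicate 2. Knockout replicate 2 also stood apart in many synthetases, and results that rest on it are given with and without it. Of 10 epithelial markers the simple epithelial keratins Krt8 and Krt18 and the adhesion genes Cdh1 and Epcam were abundant, whereas the squamous markers Krt5 and Trp63 were at most 0.0306 and 0.529 CPM in any library. Of the other squamous markers Krt14 stood at 13.2 to 16.7 CPM in parental and 8.97 to 38.8 CPM in knockout libraries, and Sfn at 15.6 to 31.4 and 20.98 to 57.4 CPM. The summed level of the epithelial list was 3432 to 4013 TPM in parental and 3990 to 6007 TPM in knockout libraries. TPM is the transcript share scaled by exon length. Krt8 rose (496, 614 and 677 CPM in parental, 1801, 840 and 1887 CPM in knockout libraries; edgeR adjusted p = 0.0471), a call that held in 6 of 14 alternatives, with an adjusted p of up to 0.189. Markers of other cells were low as TPM sums. The sum of 6 fibroblast markers was 4.43 to 5.48 TPM in parental and 1.29 to 1.65 TPM in knockout libraries, that of 6 leukocyte markers 0.619 to 1.26 and 0.638 to 2.00 TPM, and that of 4 endothelial markers at most 0.638 TPM. Pdgfra was the only 1 of 3 tested fibroblast markers that was called. It fell from 13.5, 11.3 and 10.6 CPM in parental to 3.15, 3.73 and 3.86 CPM in knockout libraries (log2 fold change -1.72 ± 0.20; edgeR adjusted p = 0.00934). That call held in 11 of 14 alternatives, with an adjusted p of up to 0.0766. Lum of the fibroblast and Cd3e of the leukocyte list were at 0 in every library. The part of these marker differences in the results was not tested. In bulk RNA, fewer cells of a type and less RNA per cell cannot be told apart.

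All 37 synthetases were detected in every library and all passed the filter on low counts. Cytosolic enzymes were the more abundant class on the length-scaled TPM level, with no overlap of the class ranges. The mean level over the 6 libraries ran from 114 TPM for Hars (histidine) to 594 TPM for Nars (asparagine) among cytosolic enzymes, with a median of 191 TPM. Among mitochondrial enzymes it ran from 4.50 TPM for Mars2 (methionine) to 53.0 TPM for Lars2 (leucine), with a median of 14.7 TPM. The order within a class is loose: Hars, Farsb, Farsa and Dars (aspartate) had means of 114, 120, 120 and 128 TPM, and their libraries overlapped. Kars and Gars, the genes that serve both compartments, were among the 5 most abundant at 343 and 411 TPM.

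**Figure D1:**
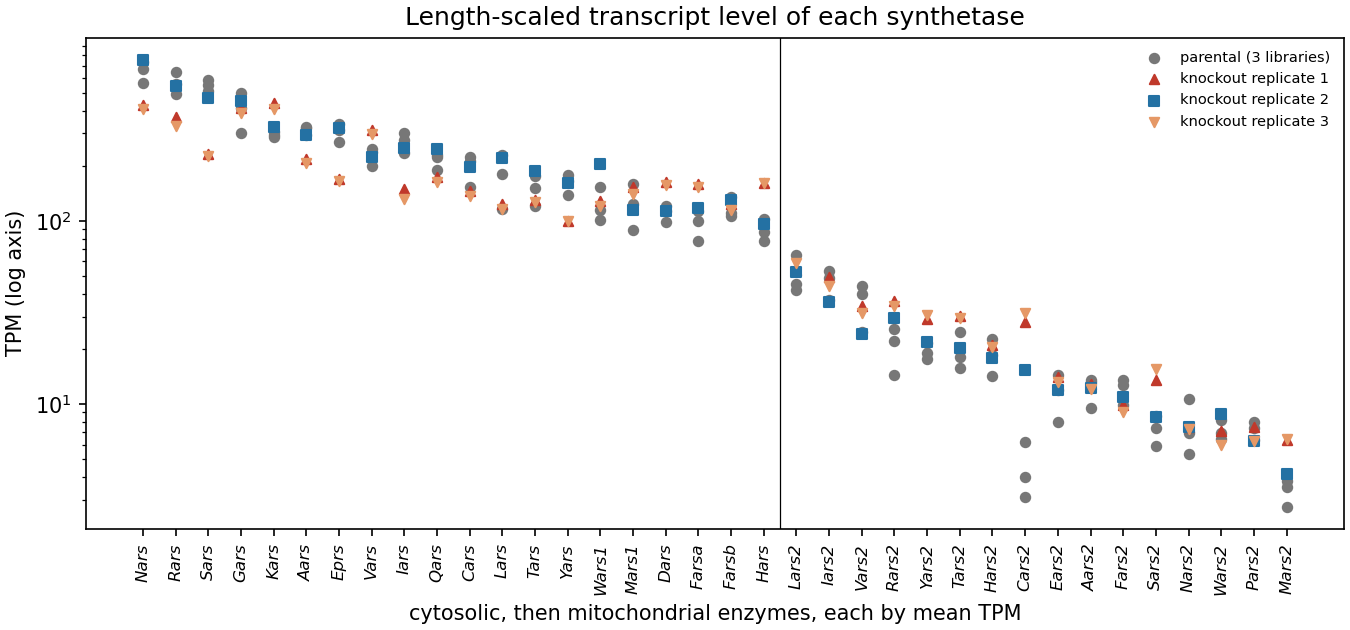
Each point is the TPM of a synthetase gene in 1 library on a log axis, with 20 cytosolic genes left of the line and 16 of the 17 mitochondrial genes right of it, each ordered by mean TPM. The lowest cytosolic mean, 114 TPM for Hars, lies above the highest mitochondrial mean, 53.0 TPM for Lars2, and the Cars2 points of the genotypes are widely separated.

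Among the synthetases, Cars2 rose in p62 knockout cells and no other member passed the test with all 6 libraries. It was called with an edgeR quasi-likelihood test, adjusted over 12775 tested genes, at an adjusted p below 0.05. That is 1 of 37 members called, against 9.08% of all tested genes in either direction, 3.48% called higher and 5.6% called lower. By class it was 1 of 17 mitochondrial and 0 of 20 cytosolic members. The median log2 fold change (knockout over parental) was 0.18 for mitochondrial and 0.00 for cytosolic members, beside 0.02 for all tested genes. At an unadjusted p below 0.05 there were 6 mitochondrial members, all with a positive sign, and 5 cytosolic members, of which 4 had a positive sign. Of all tested genes 32.5% were at that level, 16.6% with a positive and 15.8% with a negative sign, so that 11 of 37 members is near the background. DESeq2 called 8 members, all higher: Cars2, Sars2, Mars2, Rars2, Yars2, Hars, Farsa and Kars. DESeq2 called 22.6% of all tested genes, 11.6% higher and 11% lower, so its total for the synthetases is also near the background. Limma-voom called 1 member and 8.13% of all tested genes, 2.68% higher and 5.45% lower.

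Cars2 encodes the mitochondrial cysteinyl-tRNA synthetase, which is also known to make cysteine persulfides. It stood at 5.65, 3.55 and 3.02 CPM in parental replicates 1 to 3 and at 26.2, 15.1 and 31.0 CPM in knockout replicates 1 to 3. Every knockout library was above every parental library, and knockout replicate 2 lay between the groups' other values. The means were 4.07 ± 1.39 and 24.1 ± 8.14 CPM (SD, n = 3 each), a 5.90-fold increase (log2 fold change 2.56 ± 0.36, SE; edgeR adjusted p = 0.0152). These values rest on whole read counts of 228, 141 and 99 in the parental libraries and 858, 617 and 1044 in the knockout libraries, and 91.9% of the reads were unique. Leaving out parental replicate 2 gave an adjusted p of 0.0998, parental replicate 3 0.0694, knockout replicate 1 0.0645 and knockout replicate 3 0.0625, at log2 fold changes of 2.34 to 2.51. Its cytosolic counterpart Cars did not pass, at 281, 292 and 218 CPM in parental and 200.2, 284 and 197 CPM in knockout cells (log2 fold change -0.22 ± 0.19; edgeR adjusted p = 0.464).

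The next mitochondrial members by p were Mars2, Rars2, Yars2 (tyrosine) and Sars2 (serine), none of which passed with all 6 libraries. Mars2 stood at 16.6, 15.2 and 12.9 CPM in parental and at 28.9, 19.6 and 30.5 CPM in knockout libraries (log2 fold change 0.82 ± 0.21; edgeR adjusted p = 0.0569). Rars2, the mitochondrial arginine enzyme, stood at 18.5, 15.7 and 11.2 CPM and at 27.5, 23.1 and 26.8 CPM (0.77 ± 0.21; edgeR adjusted p = 0.064). In both genes the groups did not overlap, and knockout replicate 2 was the lowest of its group. Yars2 stood at 21.5, 25.6 and 24.7 CPM in parental and at 36.8, 28.9 and 40.6 CPM in knockout libraries (0.57 ± 0.17; edgeR adjusted p = 0.0785). Sars2 stood at 6.86, 5.77 and 5.04 CPM and at 11.2, 7.30 and 13.4 CPM (0.85 ± 0.27; edgeR adjusted p = 0.085). Here too every knockout library was above every parental library, and replicate 2 was the lowest knockout library. Mars2 was called when unique reads were tested (adjusted p = 0.0497).

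Together with Cars2 these were the 5 mitochondrial members with every knockout library above every parental library. Such separation was seen in 17.2% of all tested genes, and in 36.3% in either direction. The other 12 mitochondrial members overlapped between genotypes, and no member lay wholly below. The 17 log2 fold changes ran from -0.21 for Fars2 (phenylalanine) to 2.56 for Cars2, with 13 of positive and 4 of negative sign. Lars2, the most abundant mitochondrial member, had 74.1, 78.0 and 122.9 CPM in parental and 98.8, 100.1 and 113 CPM in knockout libraries, and its groups overlapped.

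**Figure D2:**
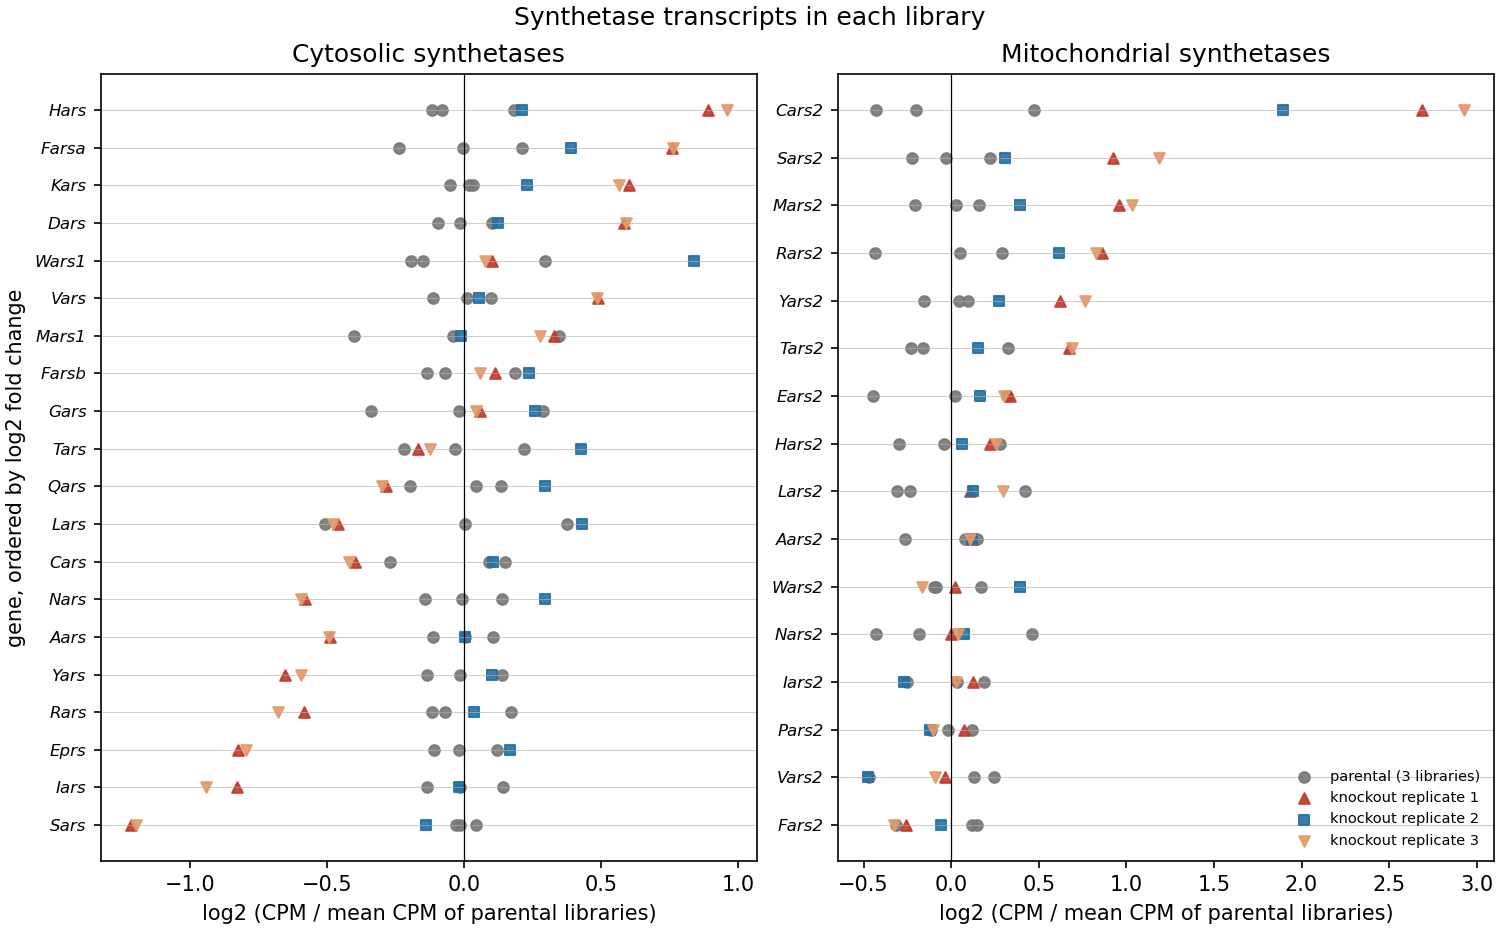
Points give the log2 ratio of each library's CPM to the mean CPM of the 3 parental libraries, with the 20 cytosolic genes in the left panel and 16 of the 17 mitochondrial genes in the right panel, ordered by log2 fold change. Cars2 stands furthest to the right at a log2 fold change of 2.56, and knockout replicate 2 lies away from knockout replicates 1 and 3 in many genes, as in Sars (-0.76).

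Cytosolic members lay on both sides of 0, and none passed with all 6 libraries. Their log2 fold changes ran from -0.76 for Sars (serine) to 0.72 for Hars, with 10 of each sign. The smallest p among them belonged to Farsa, the catalytic subunit of the phenylalanine enzyme, at 80.0, 69.0 and 58.6 CPM in parental and 117, 90.6 and 118 CPM in knockout libraries (log2 fold change 0.65 ± 0.17; edgeR adjusted p = 0.0587). Kars stood at 271, 259 and 274 CPM and at 407, 314 and 396 CPM (0.47 ± 0.14; edgeR adjusted p = 0.0737). Hars stood at 85.7, 71.5 and 69.6 CPM and at 140.1, 87.5 and 147 CPM (0.72 ± 0.22; edgeR adjusted p = 0.0747). In these 3 genes every knockout library was above every parental library, with knockout replicate 2 the nearest to the parental range. Dars separated the groups by a narrower margin, with 115, 107 and 101 CPM in parental and 161, 117 and 162 CPM in knockout libraries (0.45 ± 0.16; edgeR adjusted p = 0.106). The partner subunit Farsb did not follow Farsa in level, at 121, 96.4 and 101 CPM and at 115, 125 and 110.4 CPM, with overlapping groups (0.14 ± 0.13; edgeR adjusted p = 0.501). Whether the 2 subunits differ in their response was not tested.

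Sars was the only synthetase with every knockout library below every parental library, and 19.0% of all tested genes were placed so. It stood at 786, 817 and 777 CPM in parental and at 341, 720 and 346 CPM in knockout replicates 1 to 3. Knockout replicates 1 and 3 were far below the parental range, while replicate 2 was just under it (log2 fold change -0.76 ± 0.30; edgeR adjusted p = 0.135). Eprs, the fused glutamate and proline enzyme, had the same layout without separation, at 642, 582 and 548 CPM and at 333, 663 and 340 CPM (-0.41 ± 0.28; edgeR adjusted p = 0.345). Nars, the most abundant synthetase, stood at 853, 772 and 702 CPM and at 519, 951 and 513 CPM (-0.23 ± 0.26; edgeR adjusted p = 0.570). In Eprs and Nars replicate 2 was the highest of the 6 libraries and the other knockout libraries were the lowest. Gars had overlapping groups at 463, 374 and 299 CPM and at 394, 452 and 390 CPM (0.12 ± 0.18; edgeR adjusted p = 0.668), and its sign turned to -0.01 without parental replicate 3.

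**Figure D3:**
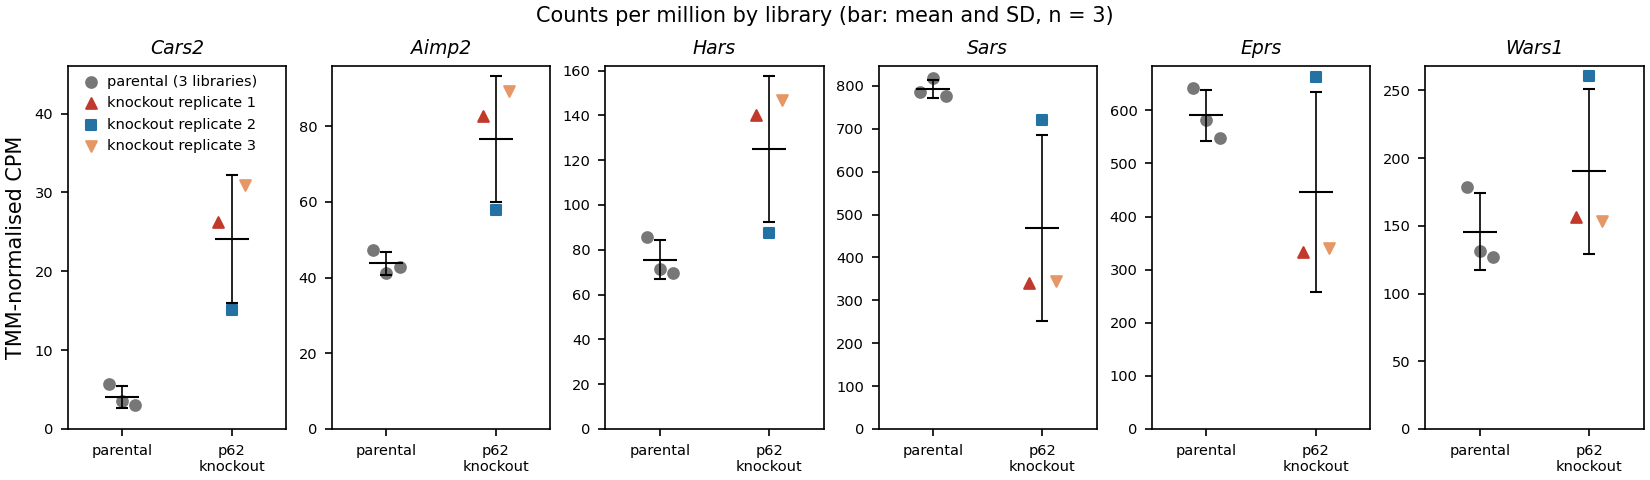
Points are TMM-normalised CPM per library, with bars at the mean and SD of each genotype (n = 3). In Cars2, Aimp2 and Hars all knockout libraries are above all parental ones, in Sars all are below, and in Eprs and Wars1 knockout replicate 2, at 663 and 261 CPM, is the highest library.

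Without knockout replicate 2, more synthetases passed, cytosolic ones in both directions and mitochondrial ones in 1. The edgeR test then called 20 of 37 members, 12 higher and 8 lower, but it also called 46.2% of all 12942 genes tested, 23.0% higher and 23.2% lower. Among mitochondrial members 7 rose and none fell. Cars2, Sars2, Mars2, Rars2 and Yars2 were among those that rose. Among cytosolic members Hars, Farsa, Kars, Dars and Vars (valine) rose and 8 fell: Cars, Nars, Aars (alanine), Yars, Rars, Eprs, Iars (isoleucine) and Sars. Sars then had a log2 fold change of -1.22 (edgeR adjusted p = 0.000609), Iars of -0.90 (0.00186) and Eprs of -0.82 (0.00177). The median log2 fold change was -0.23 for cytosolic and 0.23 for mitochondrial members, against -0.01 for all genes tested. Knockout replicates 1 and 3 were the closest pair of libraries within a genotype, with a chi-square per degree of freedom of 7.77, where other pairs of the same genotype had 40.8 to 317. How far that closeness sets the number of calls was not tested.

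**Figure D4:**
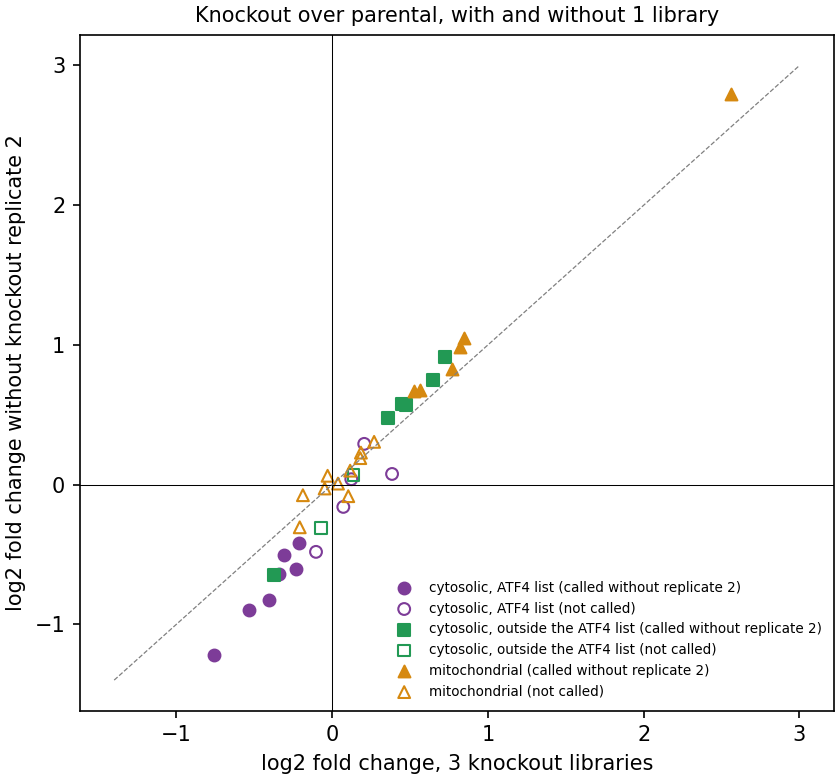
Each point is 1 of 36 of the 37 synthetases, with its log2 fold change from all 6 libraries on the horizontal axis and from 5 libraries, without knockout replicate 2, on the vertical axis. Filled points were called without replicate 2, and the dashed line marks equal values. Cytosolic Sars is the lowest point, at -0.76 and -1.22, and mitochondrial Cars2 is at the upper right, at 2.56 and 2.79.

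The 20 cytosolic members were divided by a list of 12 enzymes known as ATF4 targets. The other 8 are not on that list. With all 6 libraries none of either set was called by edgeR, and at an unadjusted p below 0.05 there was 1 in the ATF4 set (Sars, negative) and 4 in the other set (Hars, Farsa, Kars and Dars, positive). DESeq2 called 0 and 3, and limma-voom called 0 and 0. These counts stand beside 32.5% of all tested genes at an unadjusted p below 0.05 and 22.6% called by DESeq2. The median log2 fold change was -0.22 in the ATF4 set and 0.40 in the other set. For the ATF4 set it was -0.49 without knockout replicate 2, -0.09 without knockout replicate 1 and -0.10 without knockout replicate 3, and for the other set it was 0.33 to 0.52 on leaving out any 1 library. Relative to the parental mean, the mean log2 (CPM + 0.5) of the ATF4 set was 0.18, 0.00 and -0.19 in parental and -0.41, 0.22 and -0.42 in knockout replicates 1 to 3. The same quantity in the other set was 0.10, -0.03 and -0.07 and then 0.32, 0.20 and 0.31. Thus knockout replicates 1 and 3 were lowest in the ATF4 set and replicate 2 highest, while the other set was above the parental range in all 3 knockout libraries. Without knockout replicate 2, 7 of the 12 fell and none rose, and of the 8 others 5 rose and Rars fell. In that fit 46.2% of all genes tested were called, 23.0% higher and 23.2% lower.

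As a list mean, ATF4 targets other than synthetases were lowest in knockout replicates 1 and 3 and highest in replicate 2. Their mean was 0.27, 0.03 and -0.30 in parental and -0.57, 0.45 and -0.59 in knockout libraries. Atf4 itself stood at 565, 512 and 471 CPM in parental and 342, 644 and 355 CPM in knockout libraries, again with replicate 2 highest. Asns, the asparagine synthetase and a classic ATF4 target, stood at 464, 438 and 423 CPM and at 199, 402 and 201 CPM. Atf4 and Asns were picked after their values were seen, and signs over the list were mixed. Of the 31 tested targets 14 had a positive and 17 a negative log2 fold change, from -1.31 to 0.86. None of the 31 tested targets outside the synthetases was called by edgeR. At an unadjusted p below 0.05 there were 8, of which 3 were positive and 5 negative. DESeq2 called 3 (1 higher, 2 lower) and limma-voom 0. In either direction these shares were below the 32.5% and 22.6% of all tested genes. Nupr1, a stress-response regulator, had the smallest p, at 275, 517 and 368 CPM in parental and 122, 226 and 120.0 CPM in knockout libraries (log2 fold change -1.31 ± 0.33; edgeR adjusted p = 0.0518), and every knockout library was below every parental library. Without replicate 2, 16 of the 31 fell and none rose, where the same fit called 46.2% of all genes tested, 23.2% lower and 23.0% higher.

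**Figure D5:**
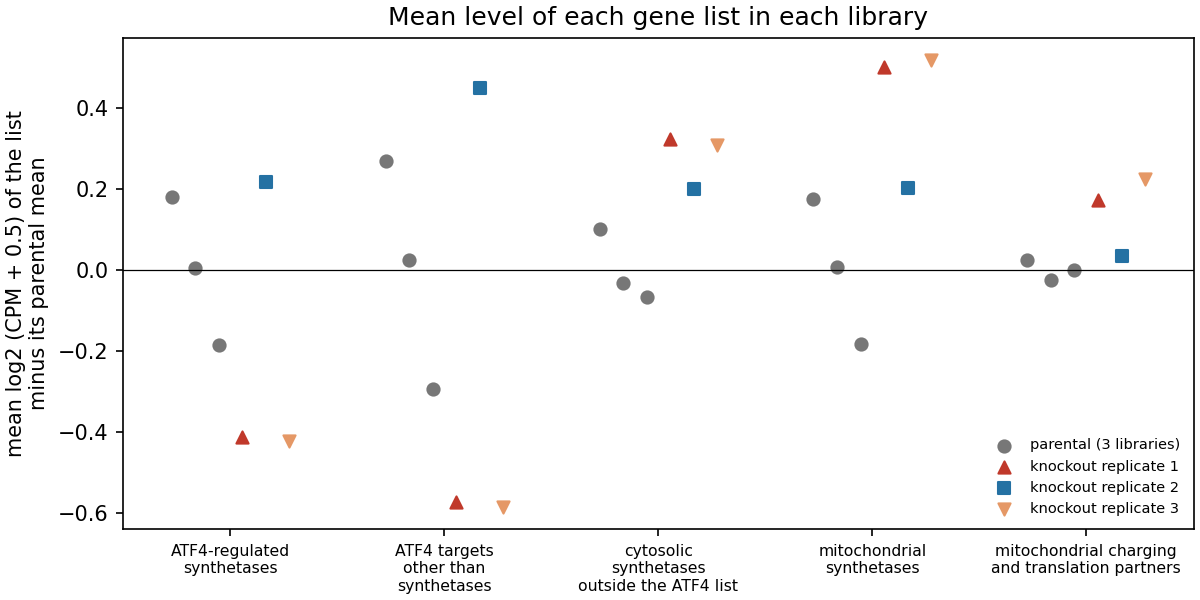
Each point is the mean log2 (CPM + 0.5) of a gene list in 1 library minus the list's parental mean. For the ATF4 lists knockout replicates 1 and 3 lie low (-0.41 and -0.42 for the synthetases) and replicate 2 lies above the parental mean (0.22), whereas the cytosolic synthetases outside the ATF4 list lie at 0.20 to 0.32 in all knockout libraries.

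Promoter sequences show where letters of the ATF4 element occur in the genes on that list. RefSeq promoters of GRCm38.p6, 250 bases before to 50 bases from the transcription start on, were matched by symbol to 27 of 37 members. The letters TGATGNAA, the core of the element bound by ATF4 and C/EBP dimers, were searched on both strands. They were found in 5 of 8 promoters of the ATF4 set, in 0 of 5 of the other cytosolic set and in 0 of 14 mitochondrial promoters, and in 3.97% of 32851 promoters in all. A match in each of these 5 genes is printed as 30 bases on the gene's strand, 5′ to 3′, with the match in capitals, because they carry the letters and lie in the set with the negative median. Counted from the transcription start, the first base of the match lies at 10 in Aars, at -30 in Gars, at 8 in Iars, at -15 in Tars and at 4 in Yars.
Aars, chr8:111033840-111033869 (+): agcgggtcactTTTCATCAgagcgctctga
Gars, chr6:55037960-55037989 (+): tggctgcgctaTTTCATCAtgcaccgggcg
Iars, chr13:49682126-49682155 (+): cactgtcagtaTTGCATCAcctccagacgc
Tars, chr15:11399655-11399684 (-): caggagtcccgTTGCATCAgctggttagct
Yars, chr4:129189895-129189924 (+): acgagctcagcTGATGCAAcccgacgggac

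A match is letters in a window and says nothing of binding. Of the 5 genes, Gars and Tars had positive log2 fold changes with all libraries (0.12 and 0.07), and Aars, Iars and Yars negative ones (-0.31, -0.53 and -0.34). The core of the interferon-stimulated response element was found in Qars (glutamine) and in no other of the 27 matched member promoters (3.44% of all promoters). Wars1 was among the 10 members with no matched promoter, so it was not searched. The core of the element of NRF1, the nuclear respiratory factor, was found in Farsb, Kars, Tars, Iars2 and Mars2 (4.6% of all promoters).

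Wars1 was not called, at 179, 131 and 127 CPM in parental and 156, 261 and 154 CPM in knockout libraries. Replicate 2 was highest and the groups overlapped (log2 fold change 0.38 ± 0.25; edgeR adjusted p = 0.315; 0.08 without replicate 2). Genes induced by interferon did change: edgeR called 10 of 13 lower and 0 higher at an adjusted p below 0.05. Their median log2 fold change was -1.65. Of all tested genes 5.6% were called lower and 3.48% higher. Ifit3, an antiviral effector, stood at 29.5, 46.1 and 68.6 CPM in parental and 1.83, 1.81 and 2.23 CPM in knockout libraries (log2 fold change -4.62 ± 0.35; edgeR adjusted p = 0.00654), with replicate 2 as low as the others. Irf7, a regulator of interferon genes, stood at 29.3, 33.5 and 44.1 CPM and at 2.14, 4.41 and 2.34 CPM (-3.58 ± 0.34; edgeR adjusted p = 0.00654). Without parental replicate 2 the adjusted p of both Ifit3 and Irf7 was 0.0537. Reads of Ifit3 and its near-identical copies may be split between them.

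Of the 3 scaffold genes of the multi-synthetase complex, Aimp2 passed the test. It rose from 47.2, 41.1 and 42.9 CPM in parental to 82.7, 57.8 and 89.2 CPM in knockout libraries, without overlap (1.75-fold; log2 fold change 0.81 ± 0.19; edgeR adjusted p = 0.0437). The call was lost with limma-voom (0.0527), with the replicate block (0.0779) and on leaving out any single library except knockout replicate 2 (adjusted p 0.0813 to 0.190). Eef1e1 stood at 60.4, 54.7 and 53.9 CPM in parental and 76.1, 68.7 and 80.8 CPM in knockout libraries (0.42 ± 0.13; edgeR adjusted p = 0.0786), all above. Aimp1 stood at 129.9, 133 and 138 CPM and at 95.9, 117 and 105.0 CPM (-0.34 ± 0.12; edgeR adjusted p = 0.109), all below. Among the 8 enzymes of the complex none was called, 2 had an unadjusted p below 0.05, DESeq2 called 1 and limma-voom 0, and their median log2 fold change was -0.09. Without knockout replicate 2, Kars and Dars rose, Rars, Eprs and Iars fell, and the median was -0.40, whereas it was 0.06 without knockout replicate 1 and 0.05 without knockout replicate 3. Of 13 cytosolic enzymes outside it, a list that includes Tarsl2, none was called, 4 had an unadjusted p below 0.05, DESeq2 called 3 and limma-voom 0, with a median of 0.12. Of these 4 rose and 5 fell without knockout replicate 2, with a median of 0.04, and without parental replicate 3 the median was -0.01. The all-gene shares of 32.5% and 22.6% stand beside the counts of both lists with all 6 libraries. Beside their counts without knockout replicate 2 stand 46.2% of all genes called, 23.0% higher and 23.2% lower.

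Class I and class II synthetases differ in the fold of the active site. Eprs, the fused enzyme, was counted in neither class. Of 18 class I members 1 was called (Cars2), 4 had an unadjusted p below 0.05 and DESeq2 called 4, with a median log2 fold change of 0.14. Of 19 class II enzymes, again with Tarsl2, 0 were called by edgeR, 8 had an unadjusted p below 0.05, DESeq2 called 5 and limma-voom 0, with a median of 0.14. Over all tested genes 32.5% had such an unadjusted p and DESeq2 called 22.6%. On leaving out 1 library the median ran from 0.06 to 0.16 in class I and from 0.07 to 0.34 in class II, the highest value of each being without parental replicate 1. The test called 9 of 18 and 11 of 19 without knockout replicate 2, beside 46.2% of all genes tested in that fit. Tarsl2, a threonyl-tRNA synthetase whose symbol the rule does not take, stood at 18.9, 14.2 and 13.3 CPM in parental and 24.4, 23.7 and 24.4 CPM in knockout libraries, without overlap (0.64 ± 0.18; edgeR adjusted p = 0.0635).

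Mitochondrial and cytosolic enzymes for the same amino acid were compared by their TPM ratio in each library. The pairs share some genes: Fars2 was set against both Farsa and Farsb, and Eprs against both Ears2 and Pars2. Of 18 pairs, every knockout ratio was above every parental ratio in 4 (Cars2 to Cars, Sars2 to Sars, Rars2 to Rars, Mars2 to Mars1), below in 1 (Vars2 to Vars), and 13 overlapped. By single-gene level 36.3% of all tested genes did not overlap, 17.2% above and 19.0% below. A share for ratios of other gene pairs was not computed. Cars2 was 2.95%, 1.78% and 2.03% of Cars in parental and 19.2%, 7.81% and 23.0% in knockout libraries. Sars2 was 1.55%, 1.26% and 1.15% of Sars and then 5.81%, 1.80% and 6.91%. Both ratios were highest in knockout replicates 1 and 3, and in replicate 2 that of Sars2 was only just above the parental range. Vars2 was 16.1%, 18.5% and 12.3% of Vars in parental and 10.96%, 10.9% and 10.5% in knockout libraries. Summed over genes, mitochondrial enzymes made up 5.43%, 5.53% and 5.49% of synthetase TPM in parental libraries and 8.35%, 5.22% and 8.66% in knockout libraries. Replicate 2 was below the parental values and the other knockout libraries above them, and the sums were 327, 309 and 261 TPM and then 391, 299 and 384 TPM. The cytosolic sums were 5692, 5275 and 4481 TPM and then 4293, 5422 and 4050.3 TPM.

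The genes that work with the mitochondrial enzymes, such as translation factors and transfer RNA modifiers, gave no call with all 6 libraries. Of 23 tested, 7 had an unadjusted p below 0.05 (6 positive, 1 negative), DESeq2 called 4, limma-voom called 0 and the median log2 fold change was 0.11. The shares over all tested genes were 32.5% and 22.6%, so the counts in either direction are no more than the background. By sign, 16.6% of all tested genes were positive and 15.8% negative at that unadjusted p, beside 6 and 1 of the 23 here. Trit1, which modifies transfer RNA near the anticodon, had the smallest p, at 17.9, 23.8 and 34.6 CPM in parental and 14.1, 12.6 and 14.1 CPM in knockout libraries (-0.90 ± 0.25; edgeR adjusted p = 0.0646), all below. Without knockout replicate 2, 7 rose and Trit1 fell, in a fit that called 46.2% of all genes tested, 23.0% higher and 23.2% lower. Of 10 accessory genes of charging, none was called, 1 had an unadjusted p below 0.05, and DESeq2 and limma-voom called 0. That gene was Trnt1, which adds the CCA end of transfer RNA, at 87.4, 81.2 and 111 CPM in parental and 138, 107 and 143 CPM in knockout libraries (0.47 ± 0.18; edgeR adjusted p = 0.119), with overlap, and it rose without knockout replicate 2 (0.57; edgeR adjusted p = 0.0236). Of 6 cytosolic elongation factors none was called, 0 had an unadjusted p below 0.05, and DESeq2 and limma-voom called 0. Eif5a, which aids elongation at difficult sequences, had the smallest p, at 907, 935 and 1228 CPM in parental and 1558, 862 and 1618 CPM in knockout libraries (0.40 ± 0.27; edgeR adjusted p = 0.344). Without knockout replicate 2, Eif5a rose (0.62; edgeR adjusted p = 0.0211) and Eef2, the translocation factor, fell (-1.24; edgeR adjusted p = 0.00113). Eef2 stood at 9995, 9425 and 9470 CPM in parental and 4120.4, 12455 and 4112 CPM in knockout libraries, with replicate 2 the highest of the 6.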

How the data were processed

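RNA-seq was measured in 3 parental and 3 p62 knockout cultures, grouped by the genotype label. The deposited tables give, per the file headers, TPM, exon length and whole-number counts of exon reads, total and unique, for each gene. The deposited TPM equals reads per exon length scaled to a fixed total (recomputed within 1e-09 for every gene). GRCm39 is named as the build per the submitters' processing notes. Which aligner, annotation and strand setting were used is not given in the sources used here, so reads of overlapping genes cannot be told apart. Such pairs include Hars and Hars2, Aars and Ddx19b, Rars2 and Orc3, Mars1 and Ddit3, Iars2 and Rab3gap2, and Farsb and Sgpp2. Of the genes listed, 3729 have exon length 0 and 0 reads. A count of 0 allows 3 reads, or 0.0735 to 0.0917 CPM, by counting error only.

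Total counts were tested with edgeR 4.0.16 (R 4.3.3): filterByExpr, TMM, a quasi-likelihood test on group alone, and Benjamini-Hochberg adjustment over all 12775 tested genes at 0.05. The scripts were tested on simulated data. Errors are SD over 3 libraries or SE of a log2 fold change. List levels use a pseudocount of 0.5 CPM and have no test. Alternatives tried were upper quartile and RLE scaling, omission of the filter, a filter of 5 CPM in 3 libraries, DESeq2 1.42.0, limma-voom (limma 3.58.1), unique reads, a replicate block and leaving out each library. Named genes are Sqstm1, called members, the 4 uncalled members with the smallest p in each class, Wars1, the shared genes, class extremes of TPM, the scaffolds and leading genes of each list; Farsb, Eprs, Cars, Vars2, Atf4, Asns, Tarsl2, Eef2, Krt8, Krt14, Sfn and the members listed under an alternative were added after their values were seen. The values of 1 mitochondrial member, which is counted in its class, and 1 promoter match are not reported here. Members and lists were chosen with earlier results of these data known.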

Additional observations from a re-analysis of the deposited data

How the results depend on the processing

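Genes called over all tested (1160) came to 2881 with DESeq2, 257 with the replicate block and 0 to 5973 on leaving out 1 library. The lowest was without parental replicate 2, where edgeR called 0 with 2494 at an unadjusted p below 0.05, and in fits added after seeing the data limma-voom called 0 and DESeq2 993. Synthetases called (1) came to 8 with DESeq2, 2 with unique reads and 0 to 20 on leaving out 1 library, where 20 was without knockout replicate 2 and 0 without parental replicate 2 or 3 or knockout replicate 1 or 3. Deviations from the group means gave no sign that replicate numbers pair the samples. Same-number correlations were -0.37, -0.10 and 0.28, and different-number ones ran from -0.33 to 0.39. With 3 libraries per group this check cannot exclude a pairing. The replicate block called 1 synthetase, Cars2. The median log2 fold change ranged from -0.23 to 0.16 for cytosolic and from 0.10 to 0.34 for mitochondrial enzymes on leaving out 1 library. Upper quartile scaling shifted the median of all genes by -0.04. Signs turned for 8 members whose log2 fold change was near 0: Nars2 with upper quartile scaling (-0.0084), and, over the omissions of 1 library, Gars (-0.0087 to 0.29), Tars (-0.16 to 0.20), Qars (-0.31 to 0.043), Lars (-0.48 to 0.13), Wars2 (-0.083 to 0.22), Nars2 (-0.13 to 0.34), Iars2 (-0.13 to 0.066) and Pars2 (-0.098 to 0.0085). The causes were not tested. All 37 synthetases held reads in every library, and depth limits the less abundant ones most.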
